A study of Mus musculus with 9 samples.

Results

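The genes described here are 34 genes of the hypoxia response and of glycolysis in mouse pancreatic tumor cells with and without a knockout of Usp22. They were chosen by name, as rows of the deposited gene table, and all 34 were among its 24493 genes. Polyadenylated RNA had been sequenced from 9 samples of cell line 6419c5, a pancreatic tumor clone on a C57BL/6 background, recovered from tumors grown in vivo under the skin of mice and described as late stage. The groups were Usp22-KOA (3 samples), Usp22-KOB (3 samples) and WT (3 samples). All groups came from this 1 clone, so they are a model of 1 tumor. The meaning of A and B, the genotype of the host mice and the way tumor cells were parted from other cells are not given in the sources consulted. Nor do the labels say that the samples came from separate mice, so a p-value reflects the spread among these 9 samples alone, and that spread may be technical.

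Levels are in TPM, transcript abundance per length scaled to 1000000 per library, and are given per sample or as mean ± SD with n = 3 per group. Read depth cannot be recovered from TPM, so the precision of a single value is unknown. A difference is that of log2(TPM + 1) with its SE, which understates the change of a low gene. A gene was called where limma gave a Benjamini-Hochberg adjusted p under 0.05 over the 13843 genes that averaged 1 TPM or more, and every adjusted p below is of this kind. Of the 34 genes 33 reached that mean, and only Car12 did not.

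When oxygen is scarce, the prolyl hydroxylases that mark the α subunits of hypoxia-inducible factors (HIF) for destruction slow down. HIF then binds short elements near genes for blood vessel growth, glucose uptake, glycolysis, acid export and restraint of mitochondria. Glycolysis splits glucose into pyruvate in the cytosol and yields ATP without oxygen. Pancreatic tumors are known for dense stroma, poor blood supply and a strong hypoxia and glycolysis programme. Usp22 removes ubiquitin from histones as an enzyme of SAGA, a coactivator of transcription.

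Usp22 itself stood at 9.77, 8.46 and 10.1 TPM in the Usp22-KOA samples, 11.8, 14.9 and 14.1 TPM in Usp22-KOB and 55.1, 54.5 and 56.4 TPM in WT. The 6 knockout samples lay below the 3 WT samples (exact two-sided permutation test, p = 0.0119, the smallest that 84 splits allow). The 10 epithelial markers fixed as a check of the tumor label summed to 6713 to 7534 TPM in Usp22-KOA, 7127 to 8712 TPM in Usp22-KOB and 8338 to 8893 TPM in WT, and none of the 10 was at 0 in all samples. Of these 10 markers 7 were lower and 1 higher in Usp22-KOA than in WT, and 6 were lower in Usp22-KOB. Among all genes tested, 26.9% were lower and 29.4% higher in Usp22-KOA, and 18.4% were lower and 18.7% higher in Usp22-KOB. Across the 9 libraries, 13037 to 13940 genes reached 1 TPM.

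The HIF element has the core ACGTG or GCGTG, which reads CACGT or CACGC on the other strand. RefSeq promoter sequences (build GRCm38.p6) were found for 32 of the 34 genes, in 46 promoters, and the 250 bases before each start were searched on both strands. At least 1 core stood in 37 of the 46 promoters (80.4%), against 53.6% of the 13561 promoters of tested genes and 38.6% of all 32851 promoters. For at least 2 cores the shares were 50.0%, 26.1% and 16.7%. Some promoters of 1 gene overlap, as for Eno1, Aldoa and Pfkm, and their cores count more than once. By gene, 29 of the 32 had a core in some promoter (90.6%), against 59.1% of 10737 tested genes and 41.5% of all 27025. The 34 genes were chosen by name for hypoxia and glycolysis, so these shares are no test. Promoters of these genes were also richer in G and C (61.3%) than those of tested genes (59.2%) or all promoters (53.2%). The core holds G and C, and the part of base composition in the shares with a core was not tested. An E-box, CACGTG, counts as a core on each strand, and it stood in 4 of the 46 promoters (8.70%) and in 8.04% of promoters of tested genes. A match in these letters is a description and not a bound site. Shown 5′ to 3′ on the gene's strand, with cores in capitals, are 4 genes that were lower in Usp22-KOA and 2 that were higher in both knockouts. They lie at chr7:110627407-110627656, plus strand (Adm), chr4:43506776-43507025, plus strand (Car9), chr8:45999851-46000100, minus strand (Ankrd37), chr7:138909507-138909756, minus strand (Bnip3), chrX:106186850-106187099, plus strand (Pgk1) and chr13:6648772-6649021, minus strand (Pfkp).
Adm: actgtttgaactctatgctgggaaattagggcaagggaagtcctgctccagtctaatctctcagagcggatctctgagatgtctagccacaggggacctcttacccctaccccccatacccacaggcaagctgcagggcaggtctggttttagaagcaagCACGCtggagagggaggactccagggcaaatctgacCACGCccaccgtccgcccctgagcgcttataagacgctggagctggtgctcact
Car9: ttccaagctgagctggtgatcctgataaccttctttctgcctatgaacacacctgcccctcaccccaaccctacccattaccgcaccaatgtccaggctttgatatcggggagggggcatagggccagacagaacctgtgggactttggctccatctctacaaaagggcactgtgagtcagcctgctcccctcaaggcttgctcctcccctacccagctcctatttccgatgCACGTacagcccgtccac
Ankrd37: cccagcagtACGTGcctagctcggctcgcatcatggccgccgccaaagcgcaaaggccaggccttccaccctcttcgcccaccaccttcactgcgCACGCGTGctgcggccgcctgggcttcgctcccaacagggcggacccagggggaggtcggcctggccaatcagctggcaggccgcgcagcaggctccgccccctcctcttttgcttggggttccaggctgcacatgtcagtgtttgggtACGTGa
Bnip3: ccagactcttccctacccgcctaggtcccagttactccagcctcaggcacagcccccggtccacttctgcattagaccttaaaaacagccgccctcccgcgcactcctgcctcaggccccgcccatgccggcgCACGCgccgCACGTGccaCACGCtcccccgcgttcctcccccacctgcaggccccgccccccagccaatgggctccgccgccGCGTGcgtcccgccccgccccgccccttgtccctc
Pgk1: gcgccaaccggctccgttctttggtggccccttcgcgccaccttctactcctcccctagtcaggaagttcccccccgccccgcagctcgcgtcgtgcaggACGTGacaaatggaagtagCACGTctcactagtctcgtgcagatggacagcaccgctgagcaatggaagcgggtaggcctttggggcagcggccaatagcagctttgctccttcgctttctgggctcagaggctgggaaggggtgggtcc
Pfkp: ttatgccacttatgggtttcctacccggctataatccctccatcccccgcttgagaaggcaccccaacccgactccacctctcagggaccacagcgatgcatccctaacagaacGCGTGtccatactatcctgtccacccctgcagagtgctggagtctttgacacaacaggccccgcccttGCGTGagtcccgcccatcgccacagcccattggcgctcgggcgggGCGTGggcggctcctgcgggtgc
In the 6 promoters shown the cores numbered 2 in Adm, 1 in Car9, 4 in Ankrd37 and 5 in Bnip3, beside 2 in Pgk1 and 3 in Pfkp. Gpi1, Tpi1 and Car12 were the genes of the 32 with no core in any promoter searched, and Gpi1 and Tpi1 fell in Usp22-KOA. The single Car9 core begins 18 bases before the start.

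More of these genes were lower than WT in Usp22-KOA than was the case in Usp22-KOB, and the knockouts are set against each other directly further on. In Usp22-KOA 23 of the 33 tested genes fell (69.7%) and 3 rose (9.09%), against 26.9% lower and 29.4% higher among all genes tested. In Usp22-KOB 9 fell (27.3%) and 6 rose (18.2%), against 18.4% lower and 18.7% higher among all genes tested. The median difference of the 33 genes was -0.41 in Usp22-KOA, where that of all genes was 0.019. In Usp22-KOB the corresponding medians were -0.038 and -0.0075. Adm, Vegfa, Car9, Ddit4, Hk2, Gpi1, Pfkm, Aldoa and Ldha were lower in both knockouts, and Hk1, Pfkp and Pgk1 were higher in both. A further 13 genes fell in Usp22-KOA and were not called in Usp22-KOB. Eno1 and Pkm rose in Usp22-KOB and were not called in Usp22-KOA, and Aldoc was lower in Usp22-KOA and higher in Usp22-KOB. How many of all genes tested showed the same combinations of calls was not counted. Both comparisons use the same WT samples, so their results are not independent.

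**Figure D1:**
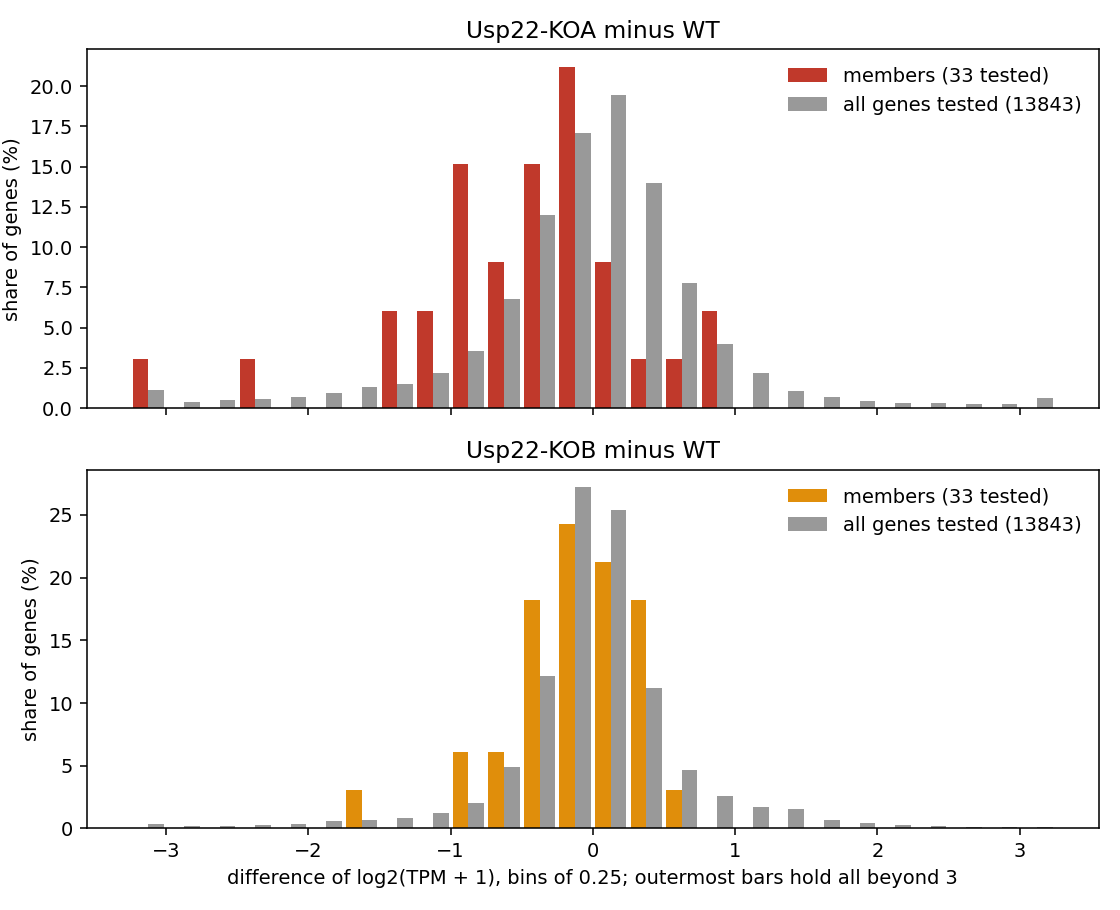
Share of genes (%) by difference of log2(TPM + 1) from WT in bins of 0.25, for the 33 tested members (coloured) and all 13843 tested genes (grey), in Usp22-KOA (top) and Usp22-KOB (bottom). In Usp22-KOA the members lie to the left of all genes, with a median of -0.41 against 0.019, and in Usp22-KOB they lie close to them, with -0.038 against -0.0075.

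The secreted and surface products had the largest median difference from WT of the 6 roles, at -1.35 in Usp22-KOA and -0.76 in Usp22-KOB. All 5 tested genes of this role were lower in Usp22-KOA and 3 were in Usp22-KOB (60%), against 26.9% and 18.4% of all genes tested. Adm encodes adrenomedullin, a peptide that widens vessels and is induced by hypoxia (chromosome 7, 110627661 to 110629820, GENCODE M21 on GRCm38). It stood at 0.306, 0.892 and 0.534 TPM in the Usp22-KOA samples, 8.03, 9.49 and 4.79 TPM in Usp22-KOB and 26.7, 23.5 and 22.4 TPM in WT. The 3 groups did not overlap, with each Usp22-KOA sample under 1 TPM and the Usp22-KOB samples between the others. Adm fell in Usp22-KOA to 2.39% of the mean WT level in TPM (difference -4.01 ± 0.22, adjusted p = 9.8e-07). In Usp22-KOB it fell to 30.7% (difference -1.62 ± 0.22, adjusted p = 6.9e-04). With values this low the size depends on the pseudocount: in Usp22-KOA the difference was -5.26 with 0.1 and -2.39 with 5 in place of 1, and both passed. Because this is RNA of bulk samples, fewer cells of a type and less RNA per cell cannot be told apart.

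Vegfa encodes the growth factor that draws in blood vessels (chromosome 17, 46016993 to 46032369). Its level was 85.9, 84.9 and 97.4 TPM in the Usp22-KOA samples, 106, 117 and 130.0 TPM in Usp22-KOB and 245, 211 and 230.1 TPM in WT. Again no group overlapped another, with Usp22-KOA lowest and Usp22-KOB next. The difference from WT was -1.35 ± 0.090 in Usp22-KOA (adjusted p = 3.1e-06), and in Usp22-KOB it was -0.96 ± 0.090 (adjusted p = 9.0e-05). Endothelial markers, 7 of 7 in the table and none at 0 in all samples, summed to 4.56 to 10.2 TPM in Usp22-KOA, 23.3 to 35.0 TPM in Usp22-KOB and 31.3 to 43.1 TPM in WT. All 6 tested ones were lower in Usp22-KOA and 1 in Usp22-KOB (16.7%), against 26.9% and 18.4% of all genes tested. Their part in the differences of hypoxia genes was not tested.

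Car9 is a membrane carbonic anhydrase that handles acid outside the cell and is a widely used hypoxia marker (chromosome 4, 43506966 to 43513729). Usp22-KOA samples held 12.3, 14.1 and 19.3 TPM, Usp22-KOB samples 52.1, 55.5 and 61.3 TPM and WT samples 79.0, 73.3 and 78.6 TPM. The samples of the groups did not overlap, and Usp22-KOA stood far below both other groups. Its difference from WT came to -2.29 ± 0.14 in Usp22-KOA (adjusted p = 1.7e-06) and -0.45 ± 0.14 in Usp22-KOB (adjusted p = 0.0323). The call in Usp22-KOB ended without Usp22-KOB 1 or 2 or any 1 of the WT samples (differences of -0.48 to -0.39; adjusted p from 0.00336 to 0.101 over the alternatives). Car12, a related anhydrase that is also induced by hypoxia, was under the mean needed for a test, with 0.393, 0.237 and 0.231 TPM in the Usp22-KOA samples, 0.321, 0.185 and 0.313 TPM in Usp22-KOB and 1.16, 0.831 and 0.865 TPM in WT. In both knockouts each sample was below each WT sample, at levels where TPM says little.

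Of the transporters, Slc2a1 (the glucose transporter GLUT1) had 90.1, 85.3 and 71.2 TPM in the Usp22-KOA samples, 110.2, 106 and 106 TPM in Usp22-KOB and 109.6, 98.5 and 113 TPM in WT. All Usp22-KOA samples lay below the others, and Usp22-KOB overlapped WT. Slc2a1 fell in Usp22-KOA (-0.38 ± 0.088, adjusted p = 0.00510) and not detectably in Usp22-KOB (0.0079 ± 0.088, adjusted p = 0.954), and the knockouts differed from each other (-0.39 ± 0.088, adjusted p = 0.00546). Slc16a3 (MCT4), which exports lactate, had 51.7, 50.0 and 23.9 TPM in the Usp22-KOA samples, 51.5, 46.2 and 33.1 TPM in Usp22-KOB and 74.4, 71.8 and 73.2 TPM in WT. Each knockout sample was below each WT sample, and sample 3 was the lowest of both knockouts. The difference passed in Usp22-KOA (-0.87 ± 0.27, adjusted p = 0.0225) and not in Usp22-KOB (-0.76 ± 0.27, adjusted p = 0.0564), while the difference between the knockouts was small beside its error (-0.11 ± 0.27, adjusted p = 0.752). Leaving out any 1 WT sample ended the call in Usp22-KOA (differences of -0.88 to -0.86; adjusted p from 0.00624 to 0.0590 over the alternatives), and without Usp22-KOA 3 the difference was -0.52. The Usp22-KOB adjusted p ran from 0.00400 to 0.157. It passed without Usp22-KOA 3, with only the groups compared in the fit and with the replicate number as a block (difference -0.76 in each).

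**Figure D2:**
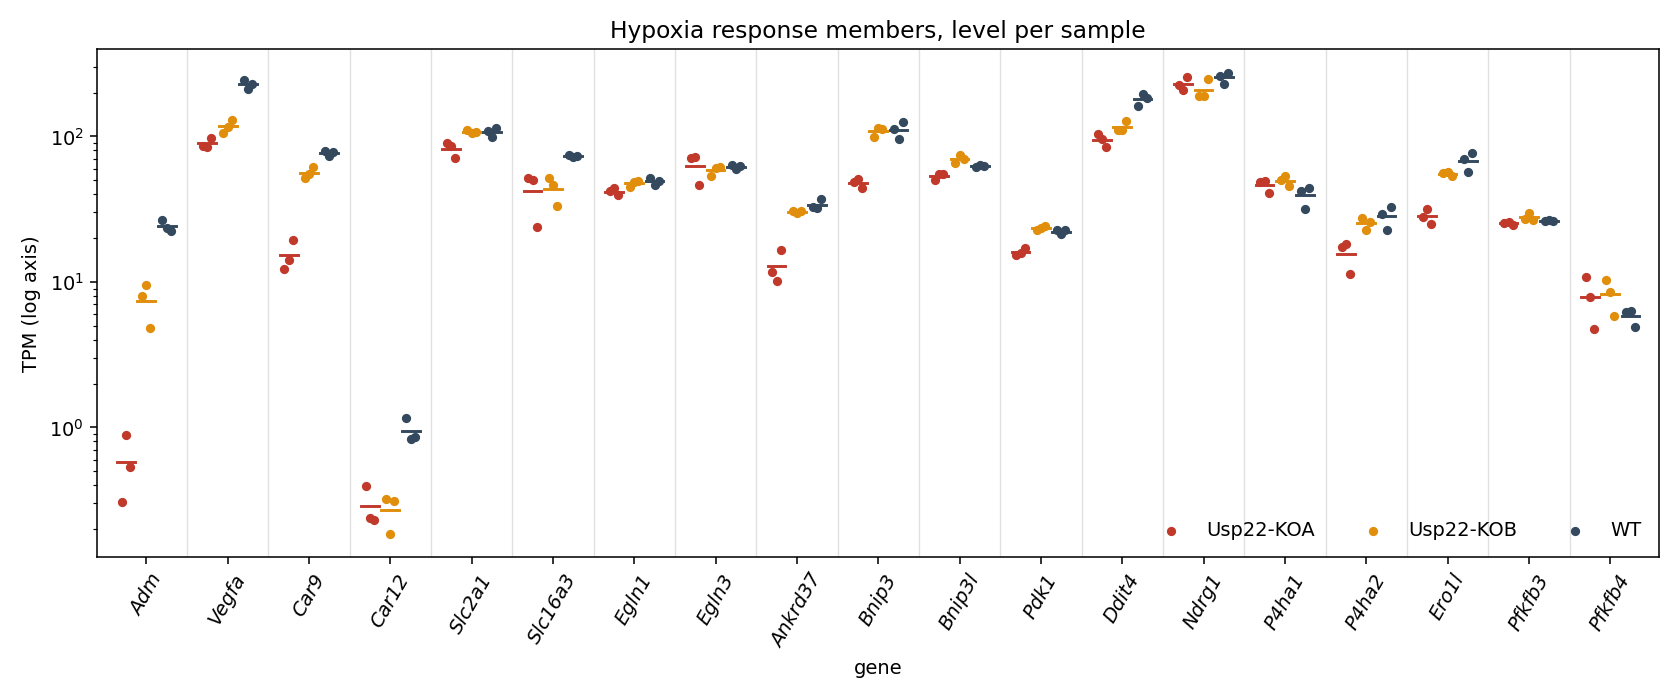
TPM of the hypoxia response genes outside the glycolytic chain, on a log axis, with 1 point per sample and a line at the mean of each group (Usp22-KOA, Usp22-KOB and WT, n = 3 each). Adm, Car9, Ankrd37, Bnip3 and Ero1l lie lowest in Usp22-KOA, Vegfa and Ddit4 lie lower in both knockouts than in WT, and the groups lie close together for Egln3 and Pfkfb3.

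The role of oxygen sensing held Egln1, Egln3 and the HIF target Ankrd37. Egln1 and Ankrd37 fell in Usp22-KOA (66.7%, against 26.9% of all genes tested), and none of the 3 was called in Usp22-KOB. Egln1 and Egln3 encode prolyl hydroxylases (PHD2 and PHD3) that mark HIF for destruction and are themselves induced by it. Egln1 had 41.8, 44.1 and 39.3 TPM in the Usp22-KOA samples, 45.0, 48.2 and 49.7 TPM in Usp22-KOB and 51.7, 46.3 and 49.0 TPM in WT. The Usp22-KOA samples lay below all others, by little, and Usp22-KOB overlapped WT. The difference in Usp22-KOA was -0.23 ± 0.067 (adjusted p = 0.0182), and the call ended without Usp22-KOA 3 (-0.18) or WT 1 (-0.19; adjusted p from 0.00151 to 0.0702 over the alternatives). In Usp22-KOB the difference was -0.038 ± 0.067 (adjusted p = 0.692). Egln3 overlapped in all groups, with 70.6, 71.9 and 46.3 TPM in the Usp22-KOA samples, 53.1, 60.3 and 61.7 TPM in Usp22-KOB and 63.9, 59.6 and 62.5 TPM in WT. Its differences from WT were -0.0058 ± 0.15 in Usp22-KOA and -0.088 ± 0.15 in Usp22-KOB (adjusted p = 0.978 and 0.679).

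Ankrd37, a small ankyrin repeat gene known as a direct HIF target, differed more (chromosome 8, 45996902 to 46005707). It had 11.7, 10.1 and 16.7 TPM in the Usp22-KOA samples, 30.6, 29.9 and 30.7 TPM in Usp22-KOB and 33.0, 32.1 and 36.9 TPM in WT. The Usp22-KOA samples stood far below both other groups, which lay close together. Its differences from WT were -1.36 ± 0.15 in Usp22-KOA (adjusted p = 5.6e-05) and -0.15 ± 0.15 in Usp22-KOB (adjusted p = 0.447). It overlaps Ufsp2 and Lrp2bp on the other strand, and the sources consulted do not say whether the libraries kept strand, so reads of the overlap may be shared. The same holds for Adm, Car9, Slc2a1, Bnip3, Ndrg1, Hk1, Hk2, Gpi1, Pfkm, Pfkp, Pfkfb3, Aldoa, Tpi1 and Gapdh, which overlap an annotated gene of the opposite strand.

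Of 5 genes of mitochondria and stress, 4 fell in Usp22-KOA (80%) and 1 in Usp22-KOB (20%), against 26.9% and 18.4% of all genes tested. Bnip3 and its relative Bnip3l mark mitochondria for removal. Bnip3 (chromosome 7, 138890836 to 138909519) had 48.9, 50.6 and 44.2 TPM in the Usp22-KOA samples, 99.1, 115 and 112 TPM in Usp22-KOB and 113, 95.2 and 126 TPM in WT. All Usp22-KOA samples stood far below all others, whereas Usp22-KOB and WT overlapped. The difference from WT was -1.19 ± 0.10 in Usp22-KOA (adjusted p = 1.5e-05) and -0.030 ± 0.10 in Usp22-KOB (adjusted p = 0.848). Bnip3l varied less, with 50.2, 55.3 and 55.2 TPM in the Usp22-KOA samples, 65.7, 74.6 and 69.6 TPM in Usp22-KOB and 61.6, 64.0 and 62.1 TPM in WT. It fell in Usp22-KOA (-0.22 ± 0.063, adjusted p = 0.0145), a call that ended without Usp22-KOA 1 (-0.18; adjusted p from 0.00177 to 0.0557 over the alternatives), and was 0.16 ± 0.063 in Usp22-KOB (adjusted p = 0.0790).

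Pdk1 encodes a kinase that shuts pyruvate out of the mitochondrial pyruvate dehydrogenase. Its levels were 15.4, 15.7 and 17.1 TPM in the Usp22-KOA samples, 22.9, 23.5 and 24.0 TPM in Usp22-KOB and 22.8, 21.2 and 22.6 TPM in WT. Each Usp22-KOA sample lay below all the others, with a difference from WT of -0.44 ± 0.065 (adjusted p = 3.7e-04), and Usp22-KOB stood at 0.078 ± 0.065 (adjusted p = 0.381). Ddit4 (REDD1), a stress protein that restrains mTORC1, had 104, 96.3 and 83.9 TPM in the Usp22-KOA samples, 111, 111 and 128 TPM in Usp22-KOB and 161, 196 and 184 TPM in WT. Each sample of both knockouts was below WT, and the differences were -0.92 ± 0.10 in Usp22-KOA and -0.62 ± 0.10 in Usp22-KOB (adjusted p = 6.3e-05 and 0.00171). Ndrg1, a stress and hypoxia gene of epithelia, overlapped in all groups, with 226, 208 and 257 TPM in the Usp22-KOA samples, 190.4, 191 and 246 TPM in Usp22-KOB and 260.3, 228 and 275 TPM in WT, and was not called against WT in either (adjusted p = 0.337 and 0.0916). In Usp22-KOB it passed as lower without Usp22-KOB 3 (-0.41) and with the replicate number as a block (-0.29). Its adjusted p there ran from 0.0111 to 0.252 over the alternatives.

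Of 3 genes of protein maturation, 2 fell in Usp22-KOA (66.7%, against 26.9% of all genes tested) and none was called in Usp22-KOB. Ero1l (now Ero1a), the oxidase that drives disulfide bonds in the endoplasmic reticulum, had 28.0, 31.9 and 24.8 TPM in the Usp22-KOA samples, 56.3, 56.7 and 53.6 TPM in Usp22-KOB and 70.0, 56.7 and 76.4 TPM in WT. It was lower in Usp22-KOA with no overlap (-1.23 ± 0.12, adjusted p = 2.6e-05), and -0.27 ± 0.12 in Usp22-KOB did not pass (adjusted p = 0.102) except without WT 2 (-0.39; adjusted p from 0.0230 to 0.294 over the alternatives). P4ha1 and P4ha2 encode the catalytic subunits of the collagen prolyl 4-hydroxylases, and both are known HIF targets. P4ha2 had 17.4, 18.2 and 11.4 TPM in the Usp22-KOA samples, 27.6, 22.7 and 25.6 TPM in Usp22-KOB and 29.2, 22.7 and 32.8 TPM in WT. It fell in Usp22-KOA, where all samples lay below the others (-0.82 ± 0.18, adjusted p = 0.00448), and not detectably in Usp22-KOB (-0.14 ± 0.18, adjusted p = 0.592). P4ha1 had 48.3, 49.1 and 40.7 TPM in the Usp22-KOA samples, 50.1, 53.8 and 45.2 TPM in Usp22-KOB and 42.4, 31.5 and 44.3 TPM in WT. Its differences had the opposite sign in both knockouts without passing (0.23 ± 0.13 and 0.34 ± 0.13, adjusted p = 0.171 and 0.0735). Fibroblast markers, 7 of 7 in the table and none at 0 in all samples, summed to 180.1 to 208 TPM in Usp22-KOA, 771 to 1179 TPM in Usp22-KOB and 482 to 897 TPM in WT. Of these 5 were lower in Usp22-KOA than in WT (71.4%, against 26.9% of all genes tested). In Usp22-KOB 3 were higher (42.9%, against 18.7%). Fibroblasts also make collagen hydroxylases, and their part in these levels was not tested.

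In upper glycolysis 6 of 10 genes fell (60%) and 2 rose (20%) in Usp22-KOA, against 26.9% and 29.4% of all genes tested. In Usp22-KOB 4 fell (40%) and 3 rose (30%), against 18.4% and 18.7%. Hk1 and Hk2 moved in opposite directions in both knockouts. Hexokinases trap glucose by phosphorylating it, and Hk2 is the hypoxia-induced form while Hk1 is widely expressed. Hk2 (chromosome 6, 82725025 to 82774454) had 25.6, 26.4 and 22.5 TPM in the Usp22-KOA samples, 30.4, 29.9 and 32.0 TPM in Usp22-KOB and 52.2, 49.1 and 45.7 TPM in WT. No group overlapped another, and the differences from WT were -0.95 ± 0.077 in Usp22-KOA and -0.65 ± 0.077 in Usp22-KOB (adjusted p = 9.3e-06 and 3.1e-04). Hk1 (chromosome 10, 62268855 to 62379908) had 131, 125 and 130.0 TPM in the Usp22-KOA samples, 94.8, 98.9 and 114 TPM in Usp22-KOB and 86.4, 82.1 and 88.0 TPM in WT. It ran the other way, again without overlap, with differences of 0.59 ± 0.070 in Usp22-KOA and 0.26 ± 0.070 in Usp22-KOB (adjusted p = 1.0e-04 and 0.0193). The call in Usp22-KOB ended without WT 1 (0.26) or WT 2 (0.23; adjusted p from 0.00601 to 0.0650 over the alternatives).

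Gpi1, the glucose-6-phosphate isomerase, was lower in both knockouts, with 233 ± 11.8 TPM in Usp22-KOA, 252 ± 7.98 TPM in Usp22-KOB and 311 ± 7.85 TPM in WT (differences -0.41 ± 0.050 and -0.30 ± 0.050, adjusted p = 1.0e-04 and 0.00171). Phosphofructokinase, the committed step, has liver (Pfkl), muscle (Pfkm) and platelet (Pfkp) forms. Pfkp (chromosome 13, 6579768 to 6648777) had 59.2, 52.9 and 53.6 TPM in the Usp22-KOA samples, 42.6, 45.1 and 38.4 TPM in Usp22-KOB and 29.6, 28.5 and 28.6 TPM in WT. No group overlapped another and Usp22-KOA was highest, with differences from WT of 0.91 ± 0.073 and 0.52 ± 0.073 (adjusted p = 8.8e-06 and 7.5e-04). Pfkl had 67.8, 60.6 and 58.8 TPM in the Usp22-KOA samples, 94.0, 92.9 and 99.1 TPM in Usp22-KOB and 85.1, 84.0 and 95.4 TPM in WT. The Usp22-KOA samples lay below both other groups, which overlapped. Pfkl was lower in Usp22-KOA (-0.49 ± 0.071, adjusted p = 3.4e-04) and not called in Usp22-KOB (0.11 ± 0.071, adjusted p = 0.244). Pfkm averaged 29.9 ± 2.13 TPM in Usp22-KOA, 28.0 ± 2.14 TPM in Usp22-KOB and 35.7 ± 1.42 TPM in WT, and was lower in both (differences -0.25 ± 0.076 and -0.34 ± 0.076, adjusted p = 0.0203 and 0.00789). The Usp22-KOA call of Pfkm ended without Usp22-KOA 1 (-0.23), Usp22-KOA 2 (-0.21) or WT 1 (-0.22; adjusted p from 0.00168 to 0.0745 over the alternatives).

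Pfkfb3 and Pfkfb4 make and break down fructose 2,6-bisphosphate, the activator of phosphofructokinase. Pfkfb3 varied little, with 25.4, 25.6 and 24.6 TPM in the Usp22-KOA samples, 26.9, 29.6 and 26.8 TPM in Usp22-KOB and 26.1, 26.8 and 26.2 TPM in WT. Pfkfb4 spread widely within both knockouts, with 4.72 to 10.9 TPM in Usp22-KOA, 5.82 to 10.3 TPM in Usp22-KOB and 4.89 to 6.35 TPM in WT. Neither was called against WT in either knockout (adjusted p of 0.268 or more).

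Aldolase splits the 6-carbon sugar. Aldoa, the main form here, had 882, 829.5 and 800.3 TPM in the Usp22-KOA samples, 976, 990.0 and 941 TPM in Usp22-KOB and 1187, 1132 and 1245 TPM in WT. The groups did not overlap, and Aldoa differed from WT by -0.50 ± 0.052 in Usp22-KOA and -0.29 ± 0.052 in Usp22-KOB (adjusted p = 4.2e-05 and 0.00264). Aldoc, the brain-type form and a known HIF target, had 11.9, 11.0 and 12.6 TPM in the Usp22-KOA samples, 29.6, 26.4 and 35.4 TPM in Usp22-KOB and 23.7, 25.0 and 23.7 TPM in WT. The knockouts lay on opposite sides of WT, with -0.97 ± 0.10 in Usp22-KOA (adjusted p = 5.0e-05) and 0.32 ± 0.10 in Usp22-KOB (adjusted p = 0.0392). The rise in Usp22-KOB rested on few samples: it passed in 10 of 18 alternatives (adjusted p from 0.0158 to 0.104) and ended without any 1 of the WT samples, Usp22-KOA 1, Usp22-KOB 1 or Usp22-KOB 3 (differences of 0.21 to 0.34).

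**Figure D3:**
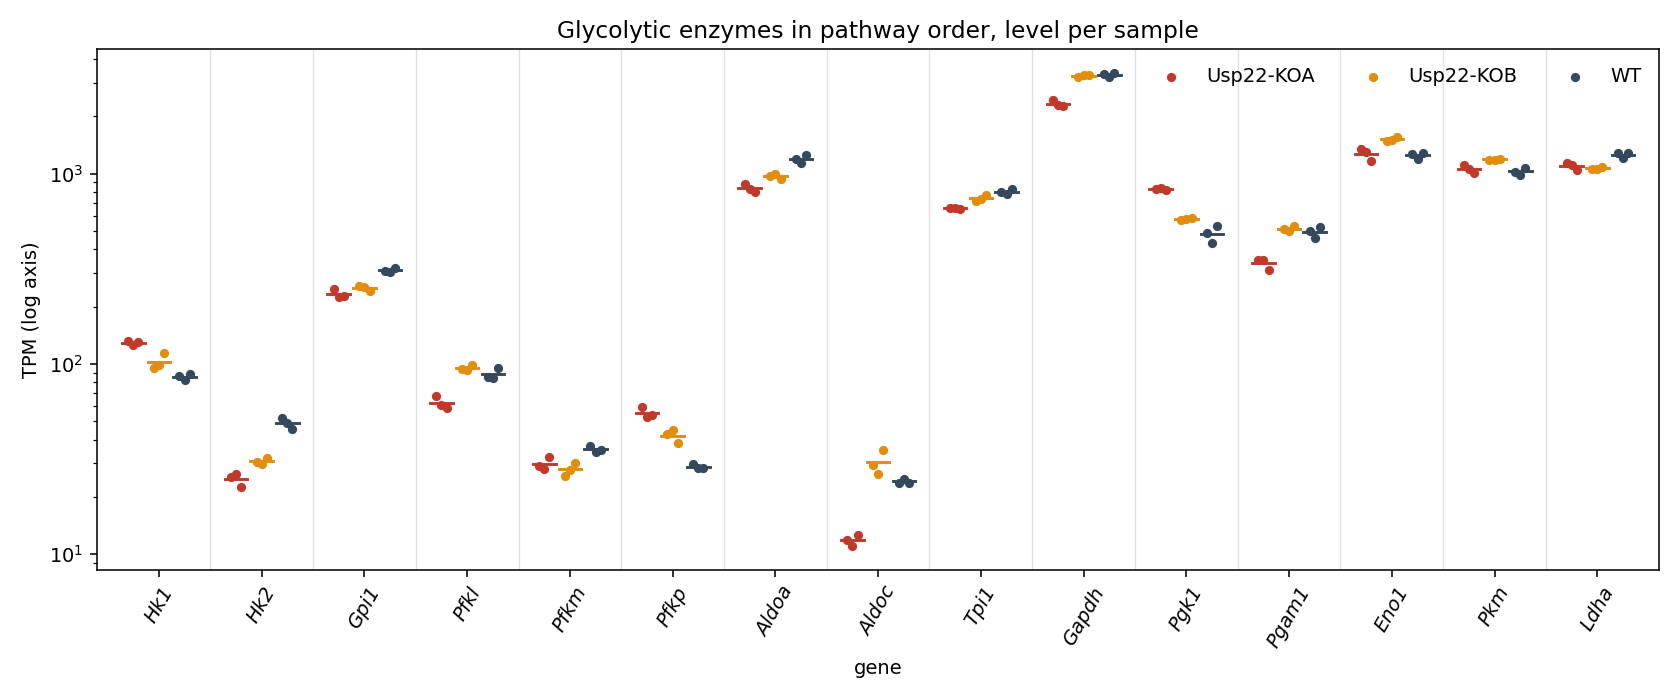
TPM of the 15 glycolytic enzymes in pathway order, on a log axis, with 1 point per sample and a line at the mean of each group (Usp22-KOA, Usp22-KOB and WT, n = 3 each). Hk1, Pfkp and Pgk1 lie highest in Usp22-KOA, whereas Hk2, Pfkl, Aldoa, Aldoc, Gapdh and Pgam1 lie lowest there.

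Lower glycolysis yields ATP and pyruvate. In Usp22-KOA 4 of its 7 genes fell (57.1%) and 1 rose (14.3%), against 26.9% and 29.4% of all genes tested. In Usp22-KOB 1 fell (14.3%) and 3 rose (42.9%), against 18.4% and 18.7%. Pgk1, phosphoglycerate kinase on the X chromosome (106187100 to 106203699), makes the first ATP of the pathway. It stood at 833, 845 and 816 TPM in the Usp22-KOA samples, 568, 580.0 and 583 TPM in Usp22-KOB and 488, 432 and 533 TPM in WT. No group overlapped another, and Usp22-KOA was highest, at 172% of the mean WT level against 119% in Usp22-KOB. The differences were 0.78 ± 0.068 and 0.26 ± 0.068 (adjusted p = 1.5e-05 and 0.0169). In Usp22-KOB the call ended without Usp22-KOB 2 (0.25; adjusted p from 0.00519 to 0.0536 over the alternatives).

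The enzymes on either side of Pgk1 were lower in Usp22-KOA. Gapdh, the step before it, had 2437, 2280.1 and 2268 TPM in the Usp22-KOA samples, 3218, 3295 and 3278 TPM in Usp22-KOB and 3342, 3201 and 3370.1 TPM in WT. Its difference was -0.51 ± 0.043 in Usp22-KOA (adjusted p = 1.4e-05) and -0.017 ± 0.043 in Usp22-KOB (adjusted p = 0.784), where it overlapped WT. Pgam1, the phosphoglycerate mutase after it, had 350.2, 353 and 311 TPM in the Usp22-KOA samples, 509, 502 and 531 TPM in Usp22-KOB and 501, 461 and 525 TPM in WT. Its difference from WT was -0.55 ± 0.065 in Usp22-KOA (adjusted p = 9.7e-05) and 0.054 ± 0.065 in Usp22-KOB (adjusted p = 0.551). Within the same libraries, then, Usp22-KOA was the highest group for Pgk1 and the lowest for both neighbours. Pgk1 amounted to 0.342, 0.371 and 0.360 of the Gapdh level in Usp22-KOA, 0.176, 0.176 and 0.178 in Usp22-KOB and 0.146, 0.135 and 0.158 in WT. Tpi1, triose phosphate isomerase, fell in Usp22-KOA (-0.29 ± 0.042, adjusted p = 3.2e-04) and was not called in Usp22-KOB (-0.11 ± 0.042, adjusted p = 0.0595), except without Usp22-KOB 3 (-0.14) or with quantile normalization (-0.14; adjusted p from 0.0243 to 0.169 over the alternatives). Its levels were 656 ± 7.30, 742 ± 26.4 and 803 ± 22.8 TPM in Usp22-KOA, Usp22-KOB and WT.

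Eno1 (enolase) and Pkm (pyruvate kinase) were not called lower in either knockout. Eno1 had 1338, 1301 and 1159 TPM in the Usp22-KOA samples, 1487, 1493 and 1553 TPM in Usp22-KOB and 1262, 1199.9 and 1287 TPM in WT. Pkm had 1107, 1051 and 1008 TPM in the Usp22-KOA samples, 1184, 1176 and 1199 TPM in Usp22-KOB and 1024, 988 and 1066 TPM in WT. For both genes each Usp22-KOB sample lay above all others, and Usp22-KOA overlapped WT. Both rose in Usp22-KOB (0.27 ± 0.059 and 0.21 ± 0.047, adjusted p = 0.00646 and 0.00821) and not called in Usp22-KOA (adjusted p = 0.828 and 0.494). With quantile normalization the Usp22-KOB calls ended, at 0.13 and 0.10, and the Usp22-KOA values turned below 0, to -0.044 and -0.056 (adjusted p over the alternatives from 0.00173 to 0.160 and 0.00652 to 0.108 in Usp22-KOB, 0.197 to 0.964 and 0.237 to 0.942 in Usp22-KOA). Ldha, the lactate dehydrogenase subunit favoured in hypoxia, had 1139, 1105 and 1044 TPM in the Usp22-KOA samples, 1059, 1059 and 1083 TPM in Usp22-KOB and 1280.5, 1205 and 1278 TPM in WT. All 6 knockout samples lay below WT, with differences of -0.19 ± 0.046 in Usp22-KOA and -0.23 ± 0.046 in Usp22-KOB (adjusted p = 0.00551 and 0.00427). Gapdh, Pgk1, Ldha, Eno1 and other abundant enzymes have near-identical copies in the genome, and how reads were divided among them is not stated, so single values are less certain. The copy Eno1b was listed at 1.18 TPM at most.

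The 15 glycolytic enzymes summed to 9319.8, 8952 and 8592 TPM in the Usp22-KOA samples, 10294, 10409 and 10531 TPM in Usp22-KOB and 10511, 10007 and 10766 TPM in WT. Usp22-KOA lay below the other groups in each sample, while Usp22-KOB and WT overlapped. The other 19 genes summed to 913 ± 31.2 TPM in Usp22-KOA, 1163 ± 49.3 TPM in Usp22-KOB and 1454 ± 80.4 TPM in WT, in separate ranges. Both sums are descriptions, with no test. A sum of TPM is weighted toward abundant genes such as Gapdh, and within the glycolytic sum Hk1, Pfkp and Pgk1 rose in Usp22-KOA.

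Shares within families showed the isoform differences without the scale of a library. Hk1 made up 83.7, 82.6 and 85.2% of Hk1 and Hk2 in Usp22-KOA, 75.7, 76.8 and 78.1% in Usp22-KOB and 62.3, 62.6 and 65.8% in WT. The ranges did not overlap, although the summed level of Hk1 and Hk2 was 154 ± 2.72, 133 ± 11.1 and 134 ± 3.78 TPM in Usp22-KOA, Usp22-KOB and WT. Pfkp took 37.9, 37.3 and 37.0% of the 3 phosphofructokinases in Usp22-KOA, 26.2, 27.2 and 22.9% in Usp22-KOB and 19.5, 19.4 and 17.9% in WT. The summed phosphofructokinase level was 148 ± 7.61, 165 ± 2.58 and 153 ± 6.25 TPM in the same order. For both of these sets of genes the shares were apart in all groups, while the totals lay closer together. Hkdc1, a further hexokinase, is outside the sum of Hk1 and Hk2, so that sum is not the total of the hexokinase step. Hkdc1 had 5.31 ± 0.444 TPM in Usp22-KOA, 2.80 ± 0.766 TPM in Usp22-KOB and 30.9 ± 2.72 TPM in WT. Bnip3 was 47.2 ± 2.47% of Bnip3 and Bnip3l in Usp22-KOA, 60.8 ± 0.732% in Usp22-KOB and 63.8 ± 3.65% in WT. P4ha1 was 74.9 ± 2.87% of P4ha1 and P4ha2 in Usp22-KOA, 66.2 ± 3.58% in Usp22-KOB and 58.3 ± 0.900% in WT. Aldoc stayed a minor form of aldolase, at 1.40 ± 0.133% in Usp22-KOA, 3.06 ± 0.524% in Usp22-KOB and 1.99 ± 0.150% in WT.

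**Figure D4:**
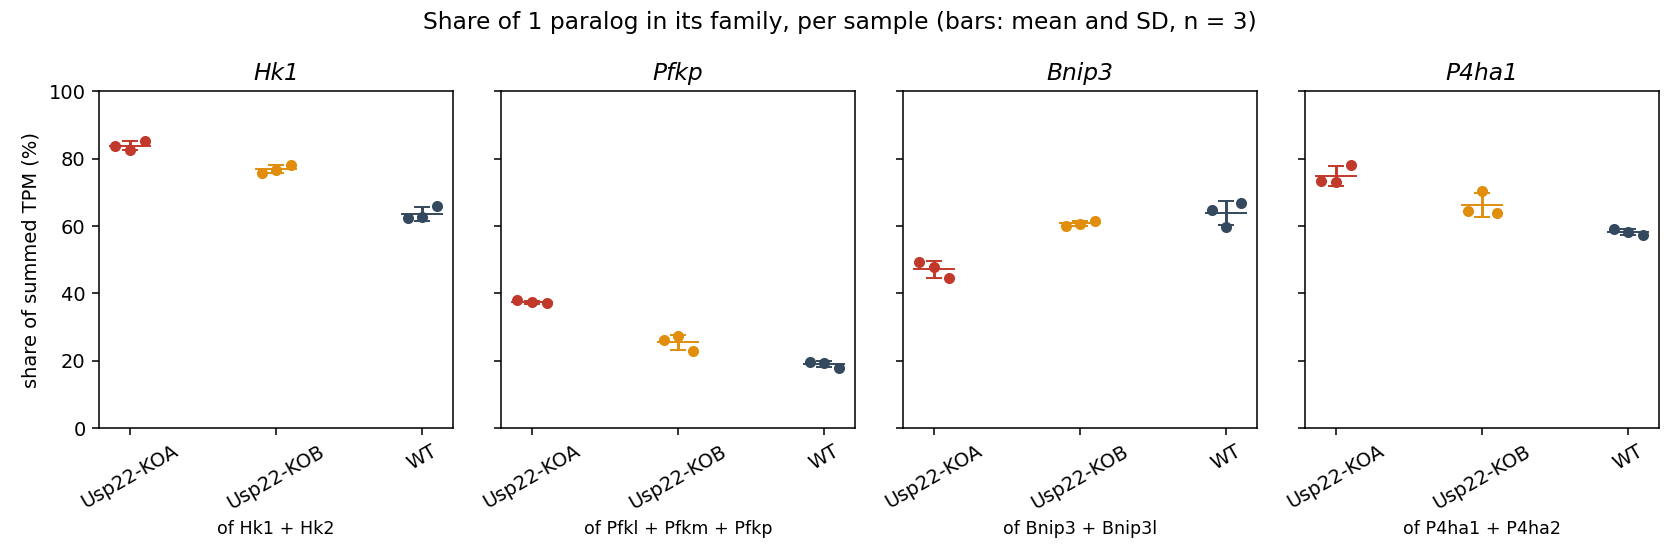
Share (%) of Hk1, Pfkp, Bnip3 and P4ha1 in the summed TPM of their families, with 1 point per sample and the mean and SD of each group (Usp22-KOA, Usp22-KOB and WT, n = 3 each). The shares of Hk1, Pfkp and P4ha1 are highest in Usp22-KOA and lowest in WT, and that of Bnip3 is lowest in Usp22-KOA.

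The difference between the knockouts was tested directly, without the WT samples in the contrast. Of the 33 genes 21 were lower in Usp22-KOA, set against Usp22-KOB (63.6%), and 3 were higher (9.09%), against 24.2% and 27.5% of all genes tested. The lower ones were led by Adm (-2.39 ± 0.22), Car9 (-1.84 ± 0.14), Aldoc (-1.28 ± 0.10), Ankrd37 (-1.21 ± 0.15) and Bnip3 (-1.16 ± 0.10), with adjusted p from 1.1e-05 to 1.8e-04. Those higher in Usp22-KOA were Pgk1 (0.53 ± 0.068), Pfkp (0.39 ± 0.073) and Hk1 (0.33 ± 0.070), with adjusted p from 2.5e-04 to 0.00376. Among genes lower in both knockouts, Vegfa and Hk2 were lower still in Usp22-KOA (-0.39 ± 0.090 and -0.30 ± 0.077, adjusted p = 0.00629 and 0.00962). Gpi1, Pfkm and Ldha were not called between the knockouts (-0.11 ± 0.050, 0.093 ± 0.076 and 0.038 ± 0.046, adjusted p = 0.0908, 0.341 and 0.518). Gpi1 passed without Usp22-KOA 1 (-0.15) and Egln3 without Usp22-KOA 3 (0.29). The calls of Ddit4 and Egln1 between the knockouts ended under 9 and 8 of 18 alternatives (adjusted p from 0.00520 to 0.116 and 0.00632 to 0.136). That of Ddit4 ended without Usp22-KOA 2 or 3, any 1 of the Usp22-KOB samples or WT 3 (-0.33 to -0.21), and that of Egln1 without Usp22-KOA 1 or 3, Usp22-KOB 2 or 3 or WT 3 (-0.19 to -0.15).

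**Figure D5:**
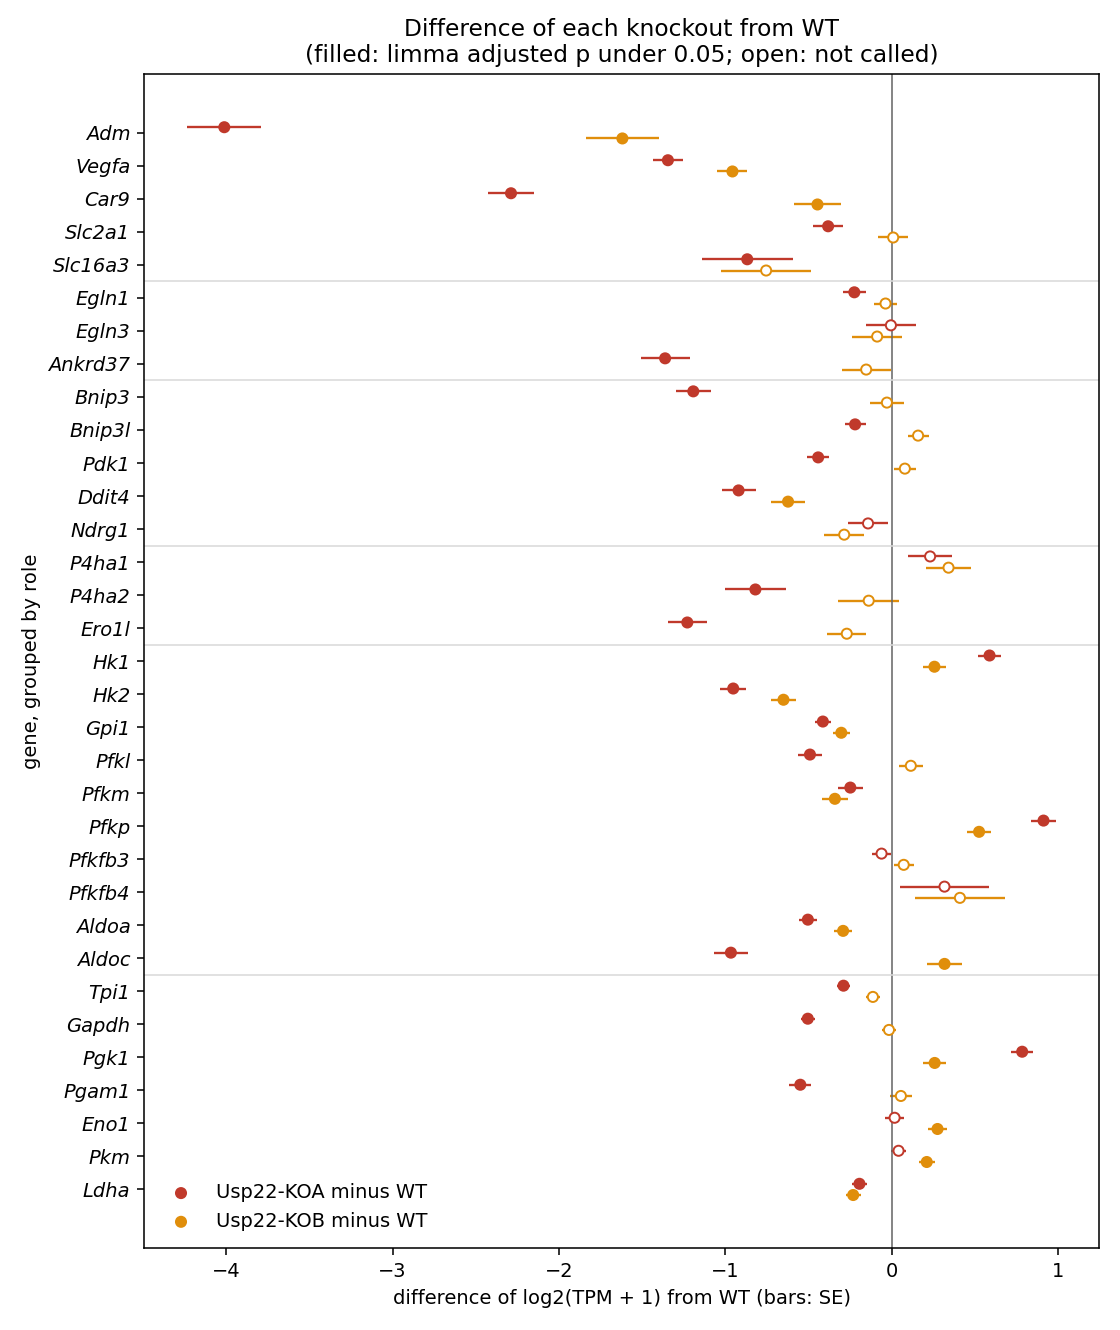
Difference of log2(TPM + 1) from WT for the 33 tested genes, grouped by role, in Usp22-KOA and Usp22-KOB, with SE bars; filled points have an adjusted p under 0.05 by limma. Most points of Usp22-KOA lie left of 0 and left of the Usp22-KOB point, while Hk1, Pfkp and Pgk1 lie right of 0 in both knockouts.

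The study's design names WT against knockout, and in the mean of both knockouts 20 genes were lower (60.6%) and 5 higher (15.2%), against 24.1% and 25.9% of all genes tested. The called genes with the largest differences in that mean were Adm (-2.82 ± 0.19), Car9 (-1.37 ± 0.12), Vegfa (-1.15 ± 0.078), Slc16a3 (-0.81 ± 0.24), Hk2 (-0.80 ± 0.066) and, upward, Pfkp (0.72 ± 0.063) and Pgk1 (0.52 ± 0.059). Taking all 6 knockout samples as a single group counts the differences between knockouts as spread. Then 9 genes were lower (Adm, Vegfa, Slc16a3, Ddit4, Hk2, Gpi1, Pfkm, Aldoa and Ldha) and 2 higher (Hk1 and Pfkp). The 24.1% and 25.9% above belong to the main fit. Fewer of all genes tested passed with the knockouts as 1 group, as the last section gives. Of the genes named in this paragraph, Car9 (adjusted p from 3.0e-06 to 0.105 over the alternatives) and Pgk1 (9.3e-05 to 0.0541) were then not called. Slc16a3 lost its call without any 1 of the WT samples (0.00384 to 0.0606). Eno1 and Pkm, called higher in the mean, lost that call under most alternatives (0.00588 to 0.573 and 0.0171 to 0.660).

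Markers of other cell types differed between the groups as well. Macrophage and monocyte markers, 8 of 8 in the table, summed to 1048 to 2675 TPM in Usp22-KOA, 4815 to 8465 TPM in Usp22-KOB and 1678 to 2599.7 TPM in WT, and all 8 rose in Usp22-KOB while none was called in Usp22-KOA. Mast cell markers, 5 of 5, summed to 1159 to 2403 TPM in Usp22-KOA, 90.8 to 119.7 TPM in Usp22-KOB and 148 to 182 TPM in WT, and all 5 rose in Usp22-KOA. In Usp22-KOB 3 of the 5 were called higher than WT and 1 lower. Among all genes tested, 29.4% were higher and 26.9% lower in Usp22-KOA, and 18.7% were higher and 18.4% lower in Usp22-KOB. Leukocyte markers, 7 of 7, summed to 382 to 807 TPM in Usp22-KOA, 735 to 1497 TPM in Usp22-KOB and 296 to 517 TPM in WT. The macrophage sum was thus highest in Usp22-KOB and the mast cell sum in Usp22-KOA. The 5 neutrophil markers summed to 576 to 1512 TPM in Usp22-KOA, 152 to 511 TPM in Usp22-KOB and 646 to 696 TPM in WT. T and NK cell markers, 6 of 7 in the table, summed to 34.4 to 83.1 TPM in Usp22-KOA, 17.7 to 48.1 TPM in Usp22-KOB and 6.51 to 12.2 TPM in WT. Both knockouts stood above WT in the T and NK cell sum in each sample. Red blood cell markers, 5 of 5 with Hbb-bs at 0 in all samples, summed to 80.4 to 100.2 TPM in Usp22-KOA, 229 to 530.4 TPM in Usp22-KOB and 269 to 323 TPM in WT. The 4 adipocyte markers summed to 4.16 to 6.01 TPM in Usp22-KOA, 5.56 to 8.31 TPM in Usp22-KOB and 7.95 to 11.5 TPM in WT. Apart from Hbb-bs, no marker of these lists was at 0 in all samples. These cells express glycolytic genes too, and their part in the levels was not tested.

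Other genes of the pathway were taken from 5 lists set by name and counted in the mean of both knockouts, where the median difference of all genes was 0.0087, 25.9% of them were higher and 24.1% lower. Of 13 HIF regulators 4 rose (30.8%) and 5 fell (38.5%), with a median of -0.010. By knockout, 4 rose and 4 fell in Usp22-KOA (30.8% each), against 29.4% and 26.9% of all genes tested. In Usp22-KOB 3 rose and 3 fell (23.1% each), against 18.7% and 18.4%. Hif1a, the oxygen-regulated α subunit, was higher in both knockouts, with 105, 120.0 and 99.5 TPM in the Usp22-KOA samples, 85.6, 91.0 and 85.3 TPM in Usp22-KOB and 56.6, 53.1 and 62.0 TPM in WT. The groups did not overlap, and the differences were 0.91 ± 0.081 and 0.60 ± 0.081 (adjusted p = 1.8e-05 and 6.4e-04). The 9 members called lower in both knockouts, Adm, Vegfa, Car9 and Hk2 among them, had the opposite sign. The 3 called higher in both (Hk1, Pfkp and Pgk1) had the same sign as Hif1a. An mRNA level does not measure the HIF protein, which is controlled mainly by its breakdown. Arnt2, a partner subunit, was lower, with 0.115 ± 0.0354 TPM in Usp22-KOA, 2.60 ± 0.375 TPM in Usp22-KOB and 6.07 ± 1.02 TPM in WT. Siah2, a ubiquitin ligase of prolyl hydroxylases, was higher in the mean (0.33 ± 0.066), and Hif1an, the asparaginyl hydroxylase that blocks HIF activity, was lower (-0.25 ± 0.061). By knockout Hif1an was lower in Usp22-KOA (-0.34 ± 0.070) and not called in Usp22-KOB (-0.17 ± 0.070, adjusted p = 0.0822).

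Of 31 tested genes in the list of other hypoxia response genes, 9 rose (29.0%) and 15 fell (48.4%) in the mean, against 25.9% and 24.1% of all genes tested, with a median of -0.19. In Usp22-KOA 9 rose (29%) and 14 fell (45.2%), against 29.4% and 26.9% of all genes tested. In Usp22-KOB 6 rose (19.4%) and 7 fell (22.6%), against 18.7% and 18.4%. Vldlr, a lipoprotein receptor, had 0.268 ± 0.0737 TPM in Usp22-KOA, 2.33 ± 0.470 TPM in Usp22-KOB and 8.97 ± 0.560 TPM in WT. Plod2, a collagen lysyl hydroxylase, was lower in Usp22-KOA (-1.78 ± 0.091, adjusted p = 6.8e-07) and not called in Usp22-KOB (0.065 ± 0.091, adjusted p = 0.610). Ppp1r3c, a glycogen-targeting subunit, was lower in both (-1.44 ± 0.17 in Usp22-KOA and -1.83 ± 0.17 in Usp22-KOB), at 0.419, 0.338 and 0.293 TPM in the Usp22-KOA samples, 0.0329, 0.0376 and 0 TPM in Usp22-KOB and 3.03, 2.97 and 2.04 TPM in WT.

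Among 20 tested glycolysis isoforms and transporters outside the 34 genes, 8 rose (40.0%) and 5 fell (25.0%) in the mean, against 25.9% and 24.1% of all genes tested, with a median of 0.18. The knockouts differed in these counts, with 11 higher and 4 lower in Usp22-KOA (median 0.34) and 8 higher and 10 lower in Usp22-KOB (median -0.13). These were 55% and 20% in Usp22-KOA, against 29.4% and 26.9% of all genes tested. In Usp22-KOB they were 40% and 50%, against 18.7% and 18.4%. Hkdc1, a further hexokinase of epithelia, had 5.31 ± 0.444 TPM in Usp22-KOA, 2.80 ± 0.766 TPM in Usp22-KOB and 30.9 ± 2.72 TPM in WT. Eno3, the muscle enolase, was higher in both knockouts, with 104 ± 15.8 TPM in Usp22-KOA, 149.8 ± 15.1 TPM in Usp22-KOB and 26.0 ± 3.46 TPM in WT. The 6 skeletal muscle markers, none at 0 in all samples, summed to 4.58 to 6.75 TPM in Usp22-KOA, 2.50 to 7.33 TPM in Usp22-KOB and 7.57 to 9.16 TPM in WT. The part of muscle in the Eno3 level was not tested. Tigar, a phosphatase that lowers fructose 2,6-bisphosphate, was higher (16.7 ± 0.346, 9.59 ± 0.358 and 5.89 ± 0.290 TPM in Usp22-KOA, Usp22-KOB and WT), and Bpgm, which makes 2,3-bisphosphoglycerate, was lower (-0.40 ± 0.063).

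For entry of pyruvate into mitochondria, 3 of 13 genes rose (23.1%) and 2 fell (15.4%) in the mean, shares no larger than the 25.9% and 24.1% of all genes tested, with a median of 0.046. In Usp22-KOA 5 rose (38.5%) and 3 fell (23.1%), against 29.4% and 26.9% of all genes tested. In Usp22-KOB 1 rose (7.69%) and 2 fell (15.4%), against 18.7% and 18.4%. Mpc1, a subunit of the mitochondrial pyruvate carrier, was higher in both knockouts (0.84 ± 0.075 in Usp22-KOA and 0.36 ± 0.075 in Usp22-KOB). Pdha1, the catalytic subunit of pyruvate dehydrogenase, was higher in Usp22-KOA, with 185 ± 6.19 TPM there, 94.8 ± 5.66 TPM in Usp22-KOB and 94.2 ± 1.42 TPM in WT. Pdk4, a kinase that inhibits that enzyme like Pdk1, was lower in both (-1.04 ± 0.18 and -1.23 ± 0.18). Pdp2, a phosphatase that reactivates the enzyme, was lower in the mean (-0.48 ± 0.13). By knockout it was lower in Usp22-KOA (-0.87 ± 0.15) and not called in Usp22-KOB (-0.097 ± 0.15, adjusted p = 0.651). Of 12 tested genes of the pentose phosphate pathway and gluconeogenesis, 6 rose (50.0%) and 2 fell (16.7%) in the mean, against 25.9% and 24.1% of all genes tested, with a median of 0.22. In Usp22-KOA 7 rose (58.3%) and 2 fell (16.7%), and in Usp22-KOB 8 rose (66.7%) and 2 fell (16.7%), against the same shares of all genes by knockout. The pentose phosphate genes Pgd, Pgls and H6pd were higher in both knockouts, with differences of 0.65 ± 0.061, 0.84 ± 0.067 and 1.07 ± 0.079 in Usp22-KOA. In Usp22-KOB they were 0.45 ± 0.061, 0.36 ± 0.067 and 0.34 ± 0.079. Pcx, pyruvate carboxylase, was lower in both (-1.47 ± 0.11 and -0.92 ± 0.11). Limma's adjusted p in the mean of both knockouts was at most 0.0135 for the genes named from these lists.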

How the data were processed

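TPM values per gene for all samples were deposited by the authors in 1 table, whose title names salmon. Build mm10 and the tools Salmon and DESeq2 are listed per the submitters' processing notes, and the sources give no version, annotation or strand setting. The labels name no batch. Each of the 9 columns was matched to 1 sample by its name, no column was left over, and each library summed to 1000000. From these TPM values log2(TPM + 1) was computed, genes averaging 1 TPM or more were kept (13843), and all 9 samples entered 1 limma fit with a mean per group and an intensity trend. Benjamini-Hochberg adjustment ran over all genes tested. The fit was also run on simulated data in which few genes changed, and by the same amount in both knockouts. That setting differs from these data, so it does not vouch for the calls here. The 34 genes, the lists and the markers were chosen with earlier results of these data known. Every one of the 34 genes is reported, with up to 4 called genes of each pathway list by smallest adjusted p in the mean of both knockouts. Of those, 1 gene is not reported here. Coordinates are from GENCODE M21 (GRCm38, also called mm10) by symbol, and promoters from RefSeq on GRCm38.p6. Alternatives were pseudocounts of 0.1 and 5, no filter, a minimum mean of 5 TPM, median-of-ratios scaling, quantile normalization, no trend, a replicate block, only the groups compared, the knockouts as 1 group, and each sample left out. The fit used limma 3.58.1 in R 4.3.3. Shares and promoter searches used Python 3.11.15, and plots used pandas 2.3.3, numpy 2.4.6 and matplotlib 3.10.9. TPM are not counts, so no count model was applied.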

Additional observations from a re-analysis of the deposited data

Results flagged for a closer look

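Aldoc differed in direction between the knockouts: its difference from WT was -0.97 ± 0.10 in Usp22-KOA, while in Usp22-KOB it was 0.32 ± 0.10. The difference between the knockouts, tested itself, was -1.28 ± 0.10 (limma, adjusted p = 1.5e-05). All 3 Usp22-KOA samples lay below, and all 3 Usp22-KOB samples above, the 3 WT samples. The rise in Usp22-KOB passed in 10 of 18 alternatives, and the difference between the knockouts passed in all 18.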

How the results depend on the processing

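The pseudocount moved Adm by over 1.5 times, to -2.39 in Usp22-KOA, -1.14 between the knockouts and -1.82 in the mean with 5. Of 132 differences (33 genes in 4 comparisons), none changed its call or sign with pseudocounts of 0.1 or 5 or with a minimum mean of 5 TPM. Quantile normalization ended 5 calls, added 5 and turned 5 signs, and no call turned its sign under any alternative. In Usp22-KOA 22 of 26 calls held in every alternative, in Usp22-KOB 9 of 15, between the knockouts 21 of 24 and in the mean of both knockouts 10 of 25. When a sample was left out, between 20 and 23 members were called lower in Usp22-KOA and between 8 and 11 in Usp22-KOB. In the same fits 6967 to 8211 of all 13843 genes tested were called in either direction in Usp22-KOA. In Usp22-KOB these were 3725 to 5607. The 5 genes called higher in the mean of both knockouts became 3 without a filter, with quantile normalization, with median-of-ratios scaling and without the trend, and 3 to 7 when a sample was left out. With the 6 knockout samples as 1 group, 2946 genes of the table passed instead of 6920, with 2 members higher and 9 lower; there a difference between the knockouts counts as spread by construction. Signs of uncalled values turned with quantile normalization for Pfkfb3 in the mean (-0.021), for Eno1 (-0.044) and Pkm (-0.056) in Usp22-KOA, and for Egln3 (-0.021) and Pfkfb4 (8.3e-04) between the knockouts; the cause was not tested. When a sample was left out, the values with a turned sign ranged as follows. In the mean, Egln3 ran from -0.10 to 0.055 and Pfkfb3 from -0.019 to 0.017. In Usp22-KOA, Egln3 ran from -0.11 to 0.20 and Eno1 from -0.025 to 0.079. In Usp22-KOB, Slc2a1 ran from -0.051 to 0.049, Egln1 from -0.077 to 0.0012 and Bnip3 from -0.14 to 0.062. Between the knockouts, Slc16a3 ran from -0.30 to 0.24, Egln3 from -0.026 to 0.29 and Pfkfb4 from -0.34 to 0.19. Whether the replicate numbers pair the samples is not stated in the labels. Same-numbered samples' deviations from their group means correlated at -0.12 to 0.28 over genes, and not every sample correlated best with its own number. Between the knockouts the same-numbered values were 0.19, 0.077 and 0.28, and with WT they ran from -0.12 to 0.077. With 3 samples per group such correlations can neither show nor exclude a pairing. With the replicate number as a block, 21 members were lower and 4 higher in the mean of both knockouts. These counts were 23 and 3 in Usp22-KOA, 11 and 6 in Usp22-KOB, and 19 and 3 between the knockouts. Counts of all genes under the block are not given, so the members cannot be set against them there. The block ended the calls of Egln1 and Ddit4 between the knockouts and of Eno1 and Pkm in the mean, and added those of Slc16a3 (-0.76) and Ndrg1 (-0.29) in Usp22-KOB and of Ndrg1 (-0.21) and Pfkfb4 (0.36) in the mean. Precision rests on 3 samples per group, since TPM gives no depth, and a TPM value also moves when other RNAs in the library change.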
